A study of Drosophila melanogaster with 6 samples.

Results

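Klumpfuss (Klu) is a zinc-finger transcription factor of the fly midgut, and most genes near its peaks were listed with a single peak. The genes described here are those listed with at least 2 separate coherent Klu peaks. They were chosen by that count alone, in the table of peaks and neighbouring genes, after repeated entries, non-coding RNAs and a short set of named genes had been left out. Of 1678 symbols listed, 167 met the rule, which is 9.95%. Of these, 142 had 2 peaks, 22 had 3 peaks and 3 had 4 peaks. Just outside the threshold, 1502 symbols had 1 peak, and 1385 of those were left after the same exclusions. All 167 were protein-coding in the reference annotation, and they made up 1.2% of the 13945 protein-coding genes annotated on the 6 arms. Their peaks came to 304 of the 1122 distinct coherent peaks, or 27.1%.

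Flies carried a Dam transgene, with or without Klu fused to it, behind a minimal hsp70 promoter and a removable STOP cassette, and a Flp recombinase driven by esg-Gal4 under a temperature-sensitive Gal80 opened the cassette. The transgene was thus active in Esg+ stem and progenitor cells after 24 h of induction in flies reared at 18 °C, and 30 to 40 whole midguts were pooled per replicate. The series had 3 Klu-Dam and 3 Dam-only libraries, and the count tables used here held the 3 Klu-Dam libraries. They contained 19521921, 18287201 and 18347327 reads in the coherent peaks of replicates 1, 2 and 3. No Dam-only value could therefore be set beside any count, and the part of the signal that Dam gives by itself cannot be told apart from that of Klu. Genomic DNA carries no expression, so the labelled cell type could not be checked with marker genes. Nothing in the labels says how far the replicates were independent beyond separate isolation dates, and p-values measure the spread between these 3 libraries. In the limma fits this spread is shared over all fitted pairs of peaks. The SE and p-value of a pair thus do not come from its own 3 values alone.

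In DamID the fused methylase marks adenines in GATC sites close to where the protein sits, and only fragments between methylated GATC sites are amplified and sequenced. A peak is therefore a run of GATC fragments, and 2 peaks of a gene are separate when at least 1 fragment between them was not called. Klu is known to act with Notch in neural stem cell lineages, and its zinc fingers are related to those of mammalian WT1 and EGR1. Long genes with large introns, such as those of signalling and patterning factors, commonly carry several regulatory elements in Drosophila. How many proteins or elements lie under a given peak is not something DamID resolves.

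The stretches that kept some peaks apart were very short. All 1122 peaks began and ended in the middle of a GATC, and the gap between neighbouring peaks of a member was 3674 bp in the median, with quartiles of 1485 and 13452 bp and a range from 36 to 200674 bp. Of 165 distinct gaps within members, 5 were 1 GATC fragment long and 9 were 2 fragments long. The shortest gaps are shown in full, 5′ to 3′ on the forward strand of Release 6, because the separation of the peaks rests on them alone. Capitals mark each GATC, and intron here and below stands for introns and non-coding exons.
Alh, intron, chr3R:7106314-7106353: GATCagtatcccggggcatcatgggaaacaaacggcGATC
CG31178, promoter, chr3R:21874166-21874239: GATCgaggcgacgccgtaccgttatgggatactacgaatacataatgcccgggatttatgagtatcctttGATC
CG43116 and Nf1, promoter of a neighbouring transcript, chr3R:25997502-25997603: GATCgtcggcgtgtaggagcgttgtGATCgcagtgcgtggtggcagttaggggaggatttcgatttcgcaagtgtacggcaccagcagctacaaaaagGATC
The Alh and CG31178 stretches each lacked an inner GATC and were thus single fragments. The stretch between the Nf1 peaks held 1 inner GATC and so was made of 2 fragments. In Fhos, a formin of actin filaments, a single fragment of 144 bp lay between the first peaks, and in Doa, a LAMMER kinase that phosphorylates splicing factors, one of 287 bp did. When peaks less than 500 bp apart were joined, 147 genes still had 2 or more peaks, joining within 1000 bp left 132, and joining within 5000 bp left 66.

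Only 3 genes had 4 peaks. Where a peak is placed in a gene, first, middle and last part mean 3 equal parts of its listed length, read from the listed start of the gene. For some members, such as CG9650 and CG43658, the reference gene reaches further than the listed one. Cv-c, a GTPase-activating protein of epithelia, had all of them within its 90.03 kb gene body (chr3R). From the end of the gene to its start, the peaks held 2198, 1902 and 1246 reads (replicates 1, 2 and 3), then 141626, 126726 and 109591, then 566, 628 and 807, and last 975, 851 and 1094. The second of these peaks (chr3R:14424974-14428363, in an intron) stood far above the other 3 in every library. Its reads per kb were 45.3 times those of the peak before it (log2 ratio 5.50 ± 0.19 SE, limma adjusted p = 3.8e-06) and 32.8 times those of the peak after it (−5.03 ± 0.23, adjusted p = 5.3e-06). The last pair of cv-c peaks gave a log2 ratio of −0.38 ± 0.18, which did not pass (adjusted p = 0.1).

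Hiw encodes an E3 ubiquitin ligase that restrains synapse growth, and its 4 peaks lay in a gene body of 53.3 kb on the X. The strongest, chrX:15016426-15020466 over coding exons near the end of the gene, held 50203, 56662 and 52168 reads. Next to it, 1410 bp away, a peak of 593 bp held only 210, 285 and 246 reads. The other peaks lay in the first part of the gene, with 4165, 5569 and 7602 reads in one and 574, 789 and 957 in the other. Each neighbouring pair of hiw differed, with log2 ratios of 4.99 ± 0.18, −1.91 ± 0.22 and −2.37 ± 0.17 along the arm (limma adjusted p = 3.9e-06, 0.00027 and 3.2e-05).

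Alh is the fly homologue of AF10, a cofactor of the Dot1 histone methyltransferase. It had 1 peak upstream of its start, with 4552, 4857 and 4282 reads, and 3 peaks in its body. The strongest was chr3R:7112203-7114962, with 21312, 29058 and 22044 reads, in a stretch that also holds the gene Mlp84B. The pair divided by the 36 bp fragment behaved differently between libraries. Its first peak had 1513, 1468 and 853 reads and its second 1458, 1762 and 4115, so that replicates 1 and 2 were near equality and replicate 3 was not. Their log2 ratio of 0.51 ± 0.45 did not pass (limma adjusted p = 0.33). Without replicate 1 the fit gave 0.95 (adjusted p = 0.012), from unlike ratios of −0.06 in replicate 2 and 1.95 in replicate 3. That p-value uses a spread shared over all pairs, so it does not reflect how far these libraries disagreed. Without replicate 3 the ratio turned to −0.22 (adjusted p = 0.25).

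**Figure D1:**
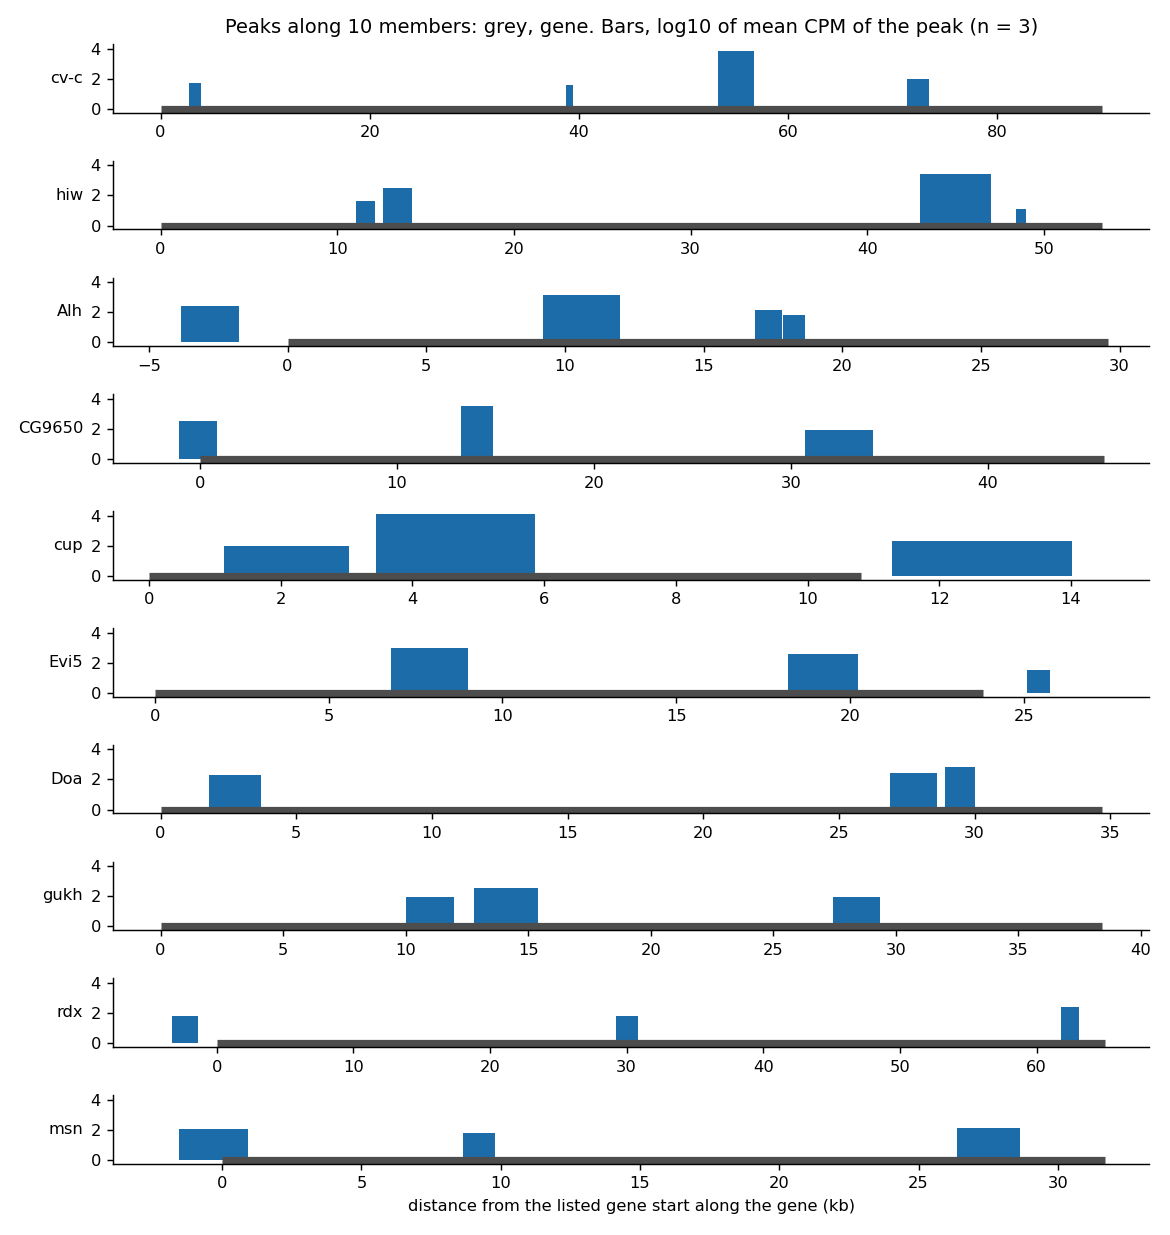
Position of the coherent peaks along 10 members, as distance from the listed gene start in the direction of the gene (kb). The grey bar is the gene, each blue bar is a peak to scale in width, and bar height is log10 of its mean CPM over 3 Klu-Dam libraries. In cv-c, hiw, Alh and cup one bar is taller than the rest, while the 3 bars of msn are of like height.

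In 22 of the 25 genes with 3 or 4 peaks the highest peak was above every other peak of the gene in all 3 libraries, with no overlap of CPM values. This count takes in genes with a second high peak, such as AIF, and no such share was taken for other groups of peaks. By reads per kb, 89.2% of all consecutive pairs of coherent peaks kept their order in 3 of 3 libraries. The count is therefore not read as a trait of these genes. CPM here means the reads of a peak per 1000000 reads in all coherent peaks of that library. In cup, a translational repressor that binds eIF4E, the middle peak (chr2L:6667407-6669824) had 181692, 211641 and 332982 reads, against 1745, 2001 and 1980 in the peak 403 bp before it. The last peak of cup had 3827, 4420 and 3391 reads. Reads per kb differed 96.7-fold across the first gap (log2 ratio 6.60 ± 0.21, limma adjusted p = 3.8e-06) and 68.5-fold across the second (−6.10 ± 0.26, adjusted p = 4.8e-06). CG34310, which has the same listed extent and strand as cup, was listed with the same 3 peaks, and Galt, an enzyme of galactose metabolism whose gene lies inside that extent, with the first 2, so that these values cannot be given to 1 of the 3 genes.

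CG9650, annotated as Cph, is a zinc-finger factor related to mammalian BCL11. Its peak at the listed start held 6364, 5396 and 7536 reads, and the intronic peak 14.1 kb from that start held 81761, 68965 and 48879. The peak in the last part held 1199, 1527 and 2133. The reference gene starts further upstream, at chrX:7137723 against a listed 7196029, so all of these peaks lie inside it. The fall from the middle to the last peak was 87.4-fold per kb (log2 ratio −6.45 ± 0.31, limma adjusted p = 6.5e-06), and the libraries did not overlap. Atg17, a scaffold of the autophagy-initiating kinase complex, had 57195, 49127 and 60166 reads in a wide peak over its start. Its other peaks had 911, 719 and 1048 and then 3077, 3709 and 3466 reads. Evi5, a Rab GTPase-activating protein, had its reads graded instead: 607, 637 and 588 past the end of the gene, 6490, 8116 and 8052 in the last part, and 14928, 16652 and 18359 in the first part.

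The chromatin remodelling ATPase brm was the clearest case of a peak that varied between libraries. Its 3 peaks all lay at the end of the gene or past it. The outer ones held 656, 698 and 509 and 8062, 8575 and 5944 reads. The middle one (chr3L:15970898-15972042) held 6587 and 7412 reads in replicates 1 and 2 but 28270 in replicate 3, a coefficient of variation of 88.8%, where the median over all members' peaks was 15.7% and over all coherent peaks 16.7%. Between the middle peak and the one after it the log2 ratio was −0.23 ± 0.51 (limma adjusted p = 0.69) and 0.61 without replicate 3 (adjusted p = 0.0041). CG13506 likewise had 7377 and 7743 reads in its middle peak in replicates 1 and 2 and 17182 in replicate 3.

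Of the next genes with 3 peaks, only msn had no neighbouring pair that passed. Msn, the kinase at the head of the JNK cascade, had 2375, 2698 and 2772 reads in the last part, 750, 1111 and 1376 in the first part, and 1899, 2546 and 1897 over its start. Neither neighbouring pair of msn passed (log2 ratios −0.34 ± 0.20 and −0.11 ± 0.23, limma adjusted p = 0.16 and 0.68), although without replicate 3 the first did (−0.49, adjusted p = 0.018). Msp300, a giant nesprin that anchors nuclei and is the longest gene with 3 or more peaks (106 kb), had low counts throughout, from 309 to 1103 reads per peak and library. Gukh, a synaptic scaffold that binds Discs large, had 6756, 6505 and 5748 reads in its central peak and 1352 to 2306 in the outer ones. Rdx, a Cullin-3 adaptor that turns over the Hedgehog effector Ci, had 5029, 4919 and 4673 reads near its end and 1021 to 1426 in its other peaks. Both pairs of Msp300 passed (log2 ratios 1.66 and −1.27), as did both of gukh (1.46 and −1.42). In rdx the first pair along the arm passed (−2.29) and the second did not (−0.29). Across the 25 genes with 3 or 4 peaks, the plot of reads by library shows how far single libraries depart from each mean.

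**Figure D2:**
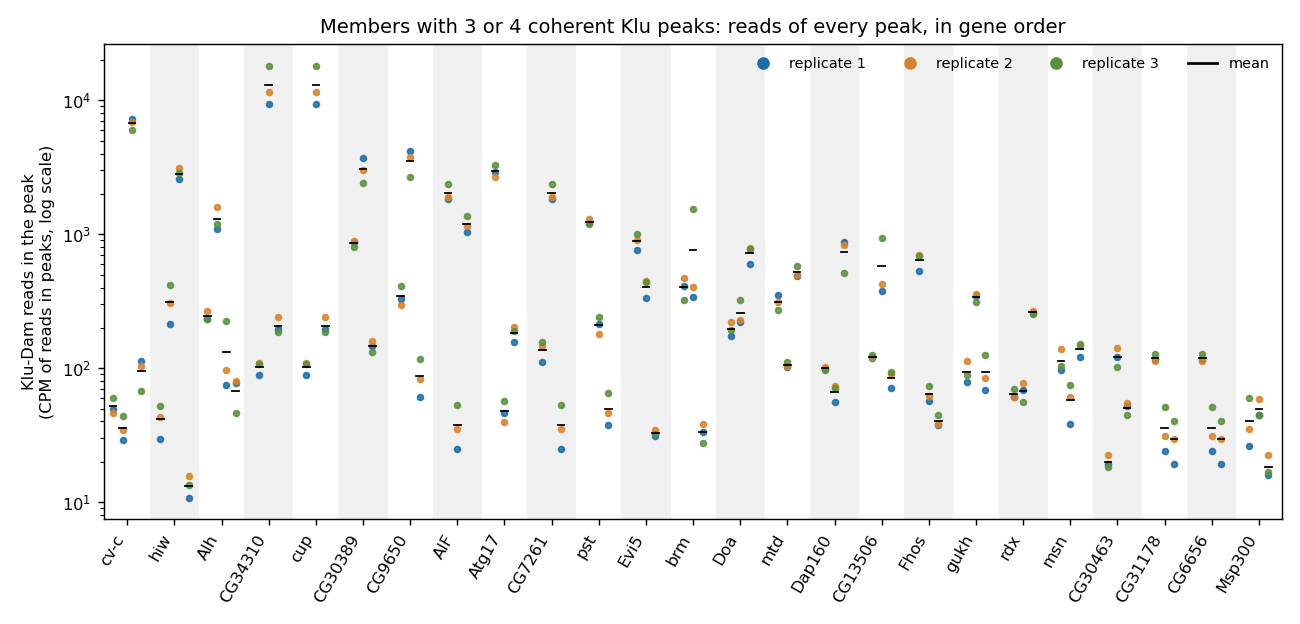
Klu-Dam reads in every coherent peak of the 25 members with 3 or 4 peaks, in CPM on a log axis, with peaks ordered from the gene start to its end. Points are the 3 libraries and black bars their mean. In 22 of the 25 genes one peak lies clear of the others in all 3 libraries, a share not taken for other groups of peaks. The middle peaks of brm and CG13506 have replicate 3 set apart.

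Within members as a whole, neighbouring peaks mostly differed in reads. For each of the 165 pairs of consecutive peaks listed with the same member, the log2 ratio of reads per kb was taken inside each library and fitted with limma over all 1116 consecutive pairs of the coherent set. Of the 165, 139 passed an adjusted p of 0.05, and they lay in 144 of the 166 members with a fitted pair (the peaks of Swim were not consecutive). That is 84.2%, beside 82.3% of all consecutive pairs in the genome, so the count says little about the members in particular. With the spread of each pair alone, 111 of the 165 passed (67.3%, beside 64.6% of all pairs). The median absolute log2 ratio was 1.91 within members and 1.68 over all pairs, and 48.5% of member pairs differed more than 4-fold, as did 44.0% of all pairs. In 151 pairs (91.5%) the order of the peaks was the same in 3 of 3 libraries, beside 89.2% of all pairs. Pairs of no shared member with gaps up to 13452 bp numbered 135, of which 81.5% passed, with a median absolute log2 ratio of 1.37. The difference between member pairs and other pairs was not tested.

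**Figure D3:**
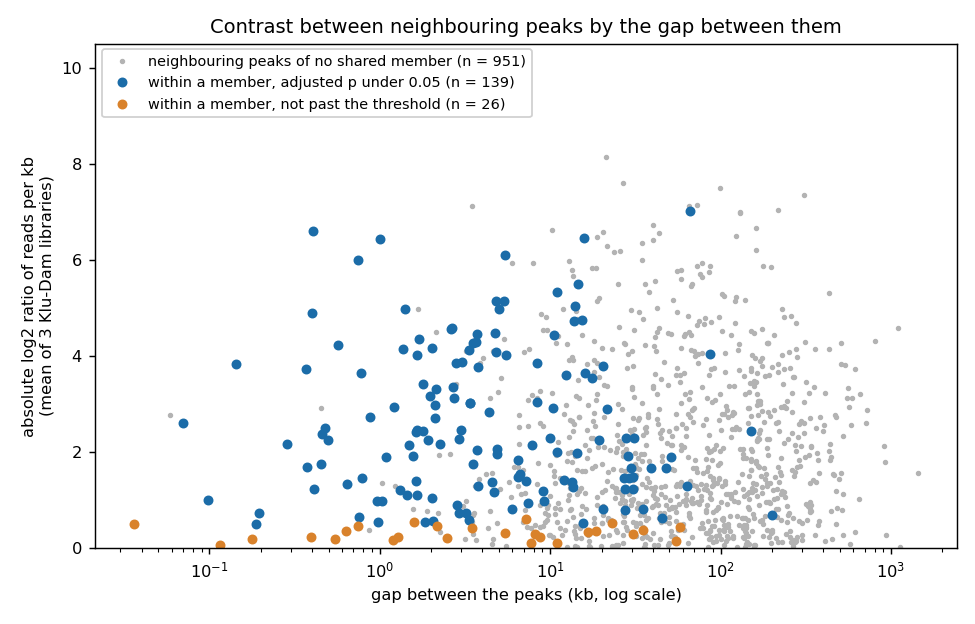
Absolute log2 ratio of reads per kb between neighbouring coherent peaks (mean of 3 Klu-Dam libraries) against the gap between them in kb on a log axis. Grey points are the 951 pairs of no shared member, blue points the 139 member pairs that passed and orange points the 26 that did not. Large and small contrasts occur at both short and long gaps within members.

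The widest contrasts involved a few very high peaks. The greatest was in CG43658, an X-linked gene with a listed length of 74.9 kb. It had 1169, 1428 and 1701 reads near its end and 281418, 292497 and 184489 at its listed start, 66521 bp away. The reference gene reaches to chrX:17561180, beyond the listed 17531454, so the higher peak lies inside it. Reads per kb differed 130-fold (log2 ratio 7.02 ± 0.26, limma adjusted p = 3.9e-06). Loco, a regulator of G-protein signalling, had 2153, 2143 and 2937 reads in one peak and 213989, 180022 and 263289 in the next, across a gap of only 747 bp (log2 ratio 6.01 ± 0.18, adjusted p = 3.8e-06). CG18135 had 773, 1217 and 1237 reads in its body and 39072, 36933 and 60906 over its start, 87.2-fold apart per kb across 997 bp. None of these libraries overlapped between the peaks compared. The highest peak held 82.2% of a member's reads in the median, and over 90% in 58 of the 167. That peak was picked from the same reads, and the 167 members had only 147 distinct sets of peaks. No such share was taken for other neighbouring peaks, so it is not read as a trait of members.

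By reads per kb, the 5 members holding the highest single peaks by CPM were far above the typical member peak, whose median was 88.2, 102 and 99.9 CPM per kb in replicates 1 to 3. Otk, an inactive receptor kinase that binds Wnt ligands, had a peak of 6448 ± 1901 CPM per kb (SD, n = 3), from 384051, 303695 and 194695 reads. SKIP, which binds the Shal potassium channel, had its peaks 151486 bp apart in a gene of 162 kb. Its lower peak held 121949, 83969 and 51669 reads, and its higher one 398473, 319137 and 261859, or 5826 ± 1029 CPM per kb. CG43658 reached 5424 ± 1237 and the cup, CG34310 and Galt peak 5380 ± 1899 CPM per kb. CG17065 had 3119 ± 2131 CPM per kb, where replicate 3 held 404268 reads and replicates 1 and 2 only 136257 and 145578. This peak (chrX:20250983-20254934) lay mostly past the end of CG17065, which is listed at chrX:20254692-20257131 on the reverse strand. It also took in part of the gene Rab10, so its reads cannot be given to CG17065 alone. Members held 6 of the 20 and 28 of the 100 coherent peaks with most reads, beside 27.1% of all peaks.

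Some members had peaks that could not be told apart by their reads. CG14566 and CG14572 shared a pair of peaks 116 bp apart, with 3523, 3187 and 2639 reads in one and 1147, 1365 and 1277 in the other. Per kb these were level (log2 ratio 0.06 ± 0.20, limma adjusted p = 0.80), but by whole read count the first was higher (−1.30, adjusted p = 0.00089), so that the answer rests on dividing by width. In CG43340, annotated as M7BP, the peaks held 3740, 3612 and 3934 and 2897, 2732 and 3354 reads (log2 ratio −0.11 ± 0.17, adjusted p = 0.58). CG45186, the fly supervillin Svil, which links actin to membranes, had 1458, 1677 and 2249 and 2533, 2093 and 2650 reads in peaks 55054 bp apart (0.16 ± 0.20, adjusted p = 0.48). For both of these the ratio per GATC fragment in place of per kb passed, at −1.33 and 1.45. CG9253 (pths, an RNA helicase) shared its peaks with Dap160, an endocytic scaffold of the synapse, and they differed by −0.17 ± 0.18 (adjusted p = 0.42).

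Replicate 3 set itself apart more than the other libraries. It was the farthest from the mean in 99 of the 165 member pairs, beside 60.4% of all pairs.

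**Figure D4:**
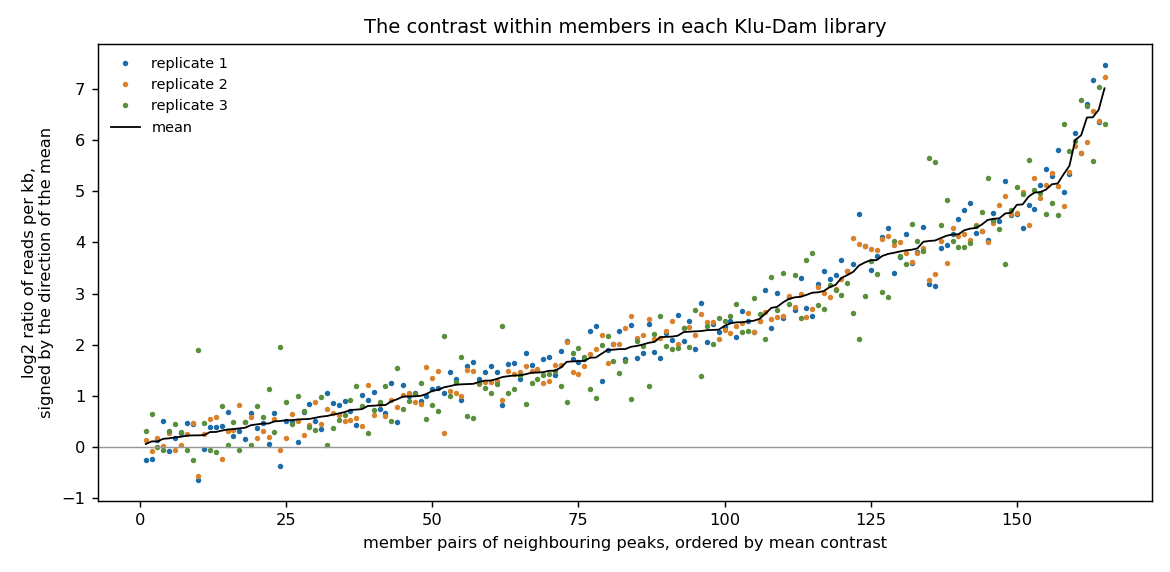
Log2 ratio of reads per kb between neighbouring peaks of a member in each of the 3 Klu-Dam libraries, signed so that the mean is positive, for 165 pairs ordered by their mean. The libraries lie close to the mean along most of the range, and replicate 3 is the library farthest from the mean in 99 of the 165 pairs.

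Roles were assigned by hand to 107 members from general knowledge, and 18 of them were transcription factors, with 37 distinct peaks. The share of each role among the other listed genes was not counted, so nothing is read from the size of a group. Of the neighbouring pairs of transcription factors 18 of 19 passed, and the counts of pairs in this and the following role groups stand beside the 82.3% of all consecutive pairs and were not tested against it. Their genes were long, with a median of 42.9 kb, and in 16 of 18 every peak touched the gene. Over all 167 members, with a median length of 12.3 kb, every peak did so in 96. Such counts, here and in the role groups below, were not tested and not matched for gene length. The nuclear factor NFAT had 13659, 10534 and 11910 reads near its start and 118107, 133448 and 158421 in an intron of the middle part (log2 ratio 3.80 ± 0.20, limma adjusted p = 9.3e-06). Mrtf, the actin-regulated coactivator of serum response factor, had 6594, 6445 and 5161 and 122145, 122493 and 137822 reads, both in introns (4.74 ± 0.20, adjusted p = 4.6e-06). Its DNA-binding partner, serum response factor itself, is encoded by bs, where an intronic peak of 44741, 48973 and 39655 reads was followed by one of 625, 836 and 1705. Vri, a bZIP repressor of the circadian clock, had 498, 348 and 343 reads in the first part and 14641, 16540 and 15989 in the last. The single pair short of the threshold was that of bab1, a BTB factor of limb and ovary patterning, with 28460, 31685 and 22168 and 37041, 35929 and 38780 reads.

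Of the fixed pathway lists, JNK signalling was the only one with 3 members, and its 11 annotated genes had no other listed gene. All 13 lists together named 269 genes, counted once per list, and 13 of them were members. Beside msn, kay encodes Fos and had 1468, 1056 and 3951 reads in the first part and 627, 767 and 775 in the middle. The log2 ratio of −1.17 ± 0.36 passed (limma adjusted p = 0.022), though replicate 3 alone lay well above the others in the first peak. Puc, the phosphatase that shuts JNK off and is itself a target of the pathway, had 1002, 1169 and 1553 and 3002, 3259 and 3587 reads in intronic peaks 188 bp apart. The puc peaks differed by 0.50 ± 0.18 (adjusted p = 0.041), a call lost without replicate 1 or replicate 2 (0.42 and 0.47, adjusted p = 0.27 and 0.26). Counts this small in a list were not tested. Of all annotated protein-coding genes, 10.9% were listed with a peak and 1.2% were members.

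The remaining list members were spread over 8 pathways. Foxo, the factor restrained by insulin signalling, had 1502, 1724 and 2453 reads in the first part and 5332, 4753 and 6286 in the middle (log2 ratio 1.19 ± 0.19, limma adjusted p = 0.0013). Wnt6, a secreted Wnt ligand, had 1978, 2259 and 1706 and 8887, 9033 and 6593 reads in intronic peaks (1.33 ± 0.17, adjusted p = 0.00051). Shn, the large zinc-finger cofactor of Dpp signalling, had 3116, 3299 and 2254 and 12179, 14666 and 17713 reads near its end (2.72 ± 0.25, adjusted p = 8.4e-05). In each of these 3 genes the lower peak of every library was below the higher peak of every library.

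Among ecdysone genes, Eip74EF (an ETS factor) had 13365, 11305 and 11243 reads at an internal promoter and 2774, 2642 and 4965 in an intron. Hr4, an orphan nuclear receptor, had 1238, 1597 and 1350 reads in its body and 4187, 4567 and 4938 past its end. Hth, the homeodomain partner that carries Extradenticle into the nucleus, had 1026, 1081 and 851 and 4709, 4597 and 3074 reads. Psq, a BTB factor that binds GAGA repeats, had 2246, 2038 and 1625 and 5857, 5475 and 3583. Lea, annotated as robo2, is a receptor for the axon guidance cue Slit, with 2279, 2625 and 1844 reads in the last part and 1143, 1150 and 875 in its first. Ork1, an open rectifier potassium channel, had 1060, 1108 and 1472 and 2426, 2776 and 3534. All 6 pairs passed, with absolute log2 ratios from 1.23 to 2.15, beside 82.3% of all consecutive pairs. The lowest of these ratios, that of Eip74EF, did not pass with the spread of each pair alone. The EGFR and Ras, JAK-STAT, Hippo and Hedgehog lists, of 29, 9, 19 and 9 annotated genes, had no member. Of their genes 7, 1, 2 and 3 were listed with a single peak. Members made up 1.2% of all annotated protein-coding genes, so a list this short without a member says little. In the wider semicoherent set of peaks, Egfr and aop of the first list and sdt of the Hippo list had 2 peaks each, so that for these lists the absence rests on the coherent set.

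Genes of the cytoskeleton, junctions and matrix formed another group of 18 with a median length of 45.0 kb. All peaks touched the gene in 16 of them, and 21 of their 24 pairs passed, near the 82.3% of all pairs. Pyd is the fly ZO-1, a scaffold of cell junctions, and had both a changeable and the faintest peak of any member. The first held 5838, 6532 and 17102 reads, the second 138, 132 and 75, or 6.12 ± 1.77 CPM. Kirre, an immunoglobulin adhesion protein of muscle founder cells in an exceptionally long gene of 392 kb, had 32361, 35870 and 23845 and 50523, 42470 and 30779 reads in peaks 200674 bp apart, the widest gap of any member pair. Trol, the basement membrane proteoglycan perlecan, had 25906, 23135 and 15457 reads in one peak and 2345, 2057 and 1304 in the next (log2 ratio −4.58 ± 0.17, limma adjusted p = 3.9e-06). T48, an apical membrane protein of the embryo, had 3809, 3052 and 2696 and 73223, 56812 and 120678. Dys (dystrophin), cno (afadin), Mbs (the targeting subunit of myosin phosphatase), ens (a kinesin cofactor on microtubules), Actn (alpha-actinin) and Mmp2 (a matrix metalloproteinase) were also members, all with both peaks touching the gene.

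Signalling and protein turnover took 22 members, whose 24 of 28 pairs passed. Sulf1, which trims heparan sulphate, had 50008, 58146 and 143276 reads in one peak and 2039, 2852 and 2318 in the other. Phlpp, a phosphatase of Akt, had 1106, 1676 and 2720 reads at its start and 68940, 63524 and 98288 past its end. Lk6, a kinase of eIF4E, had 6732, 6575 and 4046 and 7990, 8554 and 10106 reads, a difference that did not pass (log2 ratio 0.46 ± 0.26, limma adjusted p = 0.14). Nf1, the Ras GTPase-activating neurofibromin, met the rule through peaks that both lay past its end, 98 bp apart. The caspase Drice (listed as Ice) and its neighbour Etfb shared a pair with 15001, 18120 and 16988 and 807, 998 and 1940 reads.

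Metabolic and chromatin members had shorter genes, with medians of 10.1 and 6.38 kb. Of 15 metabolic members, 7 were touched by all of their peaks, and of 8 chromatin members only 2 were. FASN1 (listed as CG3523), the fatty acid synthase, had 745, 1346 and 1625 reads before its start and 41554, 46264 and 37586 over its coding exons. SCAP, the escort of SREBP, had 916, 1006 and 1152 and 256, 312 and 236 reads, but the second peak was narrower and the pair did not pass per kb (log2 ratio 0.29 ± 0.20, limma adjusted p = 0.22). AIF, a mitochondrial oxidoreductase, had 3 peaks in or near a gene of 3.64 kb, with 35857, 34704 and 43692 reads at its start, 483, 645 and 970 in its middle and 20278, 21049 and 25232 past its end. The first 2 of these were also listed with CG7261 (Tbcd, a tubulin-folding cofactor). Nlp, a nucleoplasmin of sperm chromatin, had 4020, 4809 and 4698 and 5766, 6247 and 6896 reads (log2 ratio 1.68 ± 0.17 per kb, limma adjusted p = 0.00016).

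Channels, transporters and synaptic proteins gave 10 members, and 10 of their 11 pairs passed. KCNQ, a voltage-gated potassium channel, had 466, 591 and 1726 reads at an internal promoter and 16142, 13537 and 10974 in an intron. Ca-beta, the auxiliary subunit of voltage-gated calcium channels, had 4077, 4923 and 6193 and 555, 647 and 455, both in introns of its middle part. ZnT63C, a zinc exporter, had 12180, 10117 and 9049 reads over its start and 2190, 2501 and 2090 in the last part. In these 3 genes the order of the peaks was the same in every library.

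RNA processing and translation gave 13 members, of which 10 of 14 pairs passed. The peak over the end of tho2, of the THO complex that couples transcription to mRNA export, held 52612, 49681 and 46081 reads, and the peak 1235 bp upstream of its start 2161, 2669 and 2874. Not1, the scaffold of the CCR4-NOT deadenylase, shared 10303, 9400 and 7412 and 1675, 1888 and 2061 reads with Nt5c (listed as CG1814). Tyf, which promotes translation of the clock gene period, had 6123, 8701 and 5499 and 7860, 7129 and 9283, and these libraries overlapped (log2 ratio 0.32, limma adjusted p = 0.26).

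The other 60 members were given no role. Their 110 distinct peaks ran from 13.0 to 17378 CPM in the mean, and 46 of their 57 pairs passed. Swim, whose peaks were the only ones with another coherent peak in between, had 889, 1033 and 1068 and 921, 1027 and 1196 reads, and these also overlapped. CG42666, annotated as prage, had high counts in both of its peaks, with 98867, 80486 and 110164 and 122500, 122346 and 87374 reads. Swt1 (listed as CG7206) was at the other extreme, with 54036, 50711 and 53026 and 452, 428 and 380.

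Sharing of peaks was common, and 167 members did not stand for 167 places. They fell into 138 separate loci, of which 24 held 2 or 3 members, 53 members in all. In 20 cases 2 members had identical sets of peaks, which took in 40 members. The loci with 3 members were those of AIF, Tbcd and tho2, of CG11674, Prp16 and mRpL38, of CG31178, CG31431 and CG6656, of cup, CG34310 and Galt, and of CTCF, Sec63 and pst. The last of these had 732, 840 and 1204 reads at the insulator gene CTCF, 4189, 3270 and 4405 in the pst coding region, and 23565, 23940 and 22047 at Sec63, a translocation factor of the endoplasmic reticulum. Of members' peaks, 57.6% were listed with a single gene, as were 55.7% of all coherent peaks.

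Distance rules also shaped membership. Every peak touched the gene in 96 members, 1 peak only did in 53, and none did in 5, Sec16 and Nf1 among them. By the listed distance of 0 alone, 109 genes would have had 2 or more peaks, and 134 annotated genes had bodies that overlapped 2 or more peaks. For 7 members the entry carried an identifier that belongs to another gene or is not in the reference, and these were matched by position (Ca-beta, Dys, Msi, SKIP, cup, px and Srpk79D). The entry Msi lies at Adgf-A2, next to the adenosine deaminase Adgf-A, with which it shared both peaks, and not at musashi.

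Members were longer than other listed genes. The median listed length was 12.3 kb, with quartiles of 3.71 and 34.1 kb, against 3.01 kb (quartiles 1.67 and 8.17 kb) for the 1385 genes with 1 peak. Genes with 2 peaks had a median of 11.5 kb and those with 3 or 4 a median of 23.8 kb. Even so, 50 of the 167 were shorter than 5 kb, and the shortest was 0.582 kb. Length is not independent of the rule, since a longer gene has more room for peaks, and no test was made.

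**Figure D5:**
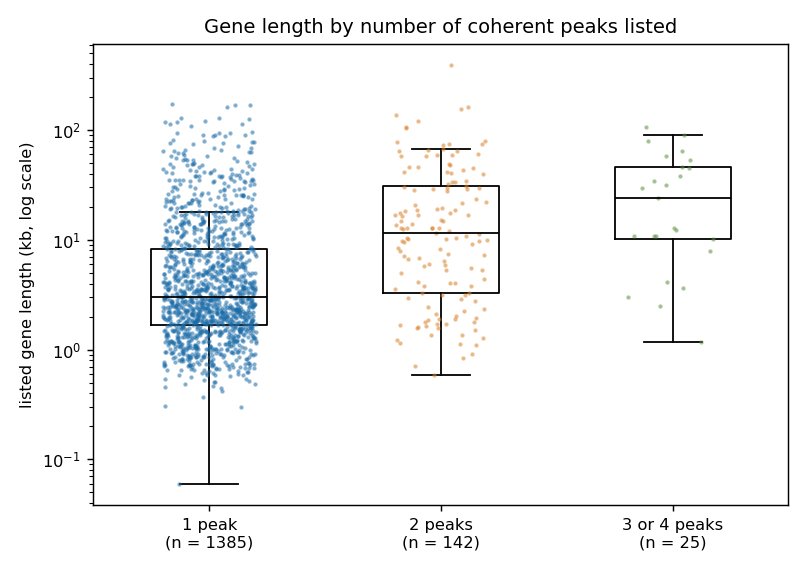
Listed gene length in kb on a log axis for genes with 1 peak (n = 1385), 2 peaks (n = 142) and 3 or 4 peaks (n = 25). Boxes give median and quartiles, whiskers reach to 1.5 times the quartile range, and each point is a gene. The medians are 3.01, 11.5 and 23.8 kb, and the ranges overlap.

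At their midpoint, members' peaks lay most often in introns or non-coding exons. These took 40.5% of members' peaks and 29.9% of all coherent peaks. Promoters, taken to reach 500 bp from a transcript start both ways, took 24.0% and 26.7%, coding exons 22.4% and 26.7%, 3′ UTRs 10.2% and 9.98%, and intergenic sequence 1.32% and 5.79%. The low intergenic share follows in part from the rule, which needs a gene nearby. Counted along the gene that listed it, a peak had its midpoint in the first, the middle or the last part in 22.4%, 19.6% and 24.3% of 362 entries, upstream in 17.1% and past the end in 16.6%. The peak with most reads per kb lay in the last part in 46 members, the middle part in 33, the first part in 31, past the end in 31 and upstream in 26. Only 50 members had a peak that covered the listed start. Arm 3R held 28.9% of members' peaks and 25.5% of all peaks, and X held 20.7% and 19.6%. The share on 2R was 17.4% against 20.4%, and no member lay on chromosome 4, which held 0.267% of all peaks.

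In height the members' peaks were like those of genes with 1 peak. The median over peaks was 96.6 ± 7.30 CPM per kb (mean and SD of 3 library medians) for 304 members' peaks and 95.5 ± 6.04 for 763 peaks of genes with 1 peak only. The log2 ratio of these medians was −0.01, 0.01 and 0.05 in replicates 1, 2 and 3, which straddles 0 within the spread of the libraries. Median width was 1652.5 bp for members' peaks and 1703 bp for the others, and both had a median of 6 GATC fragments. Members' peaks held 25.3%, 25.8% and 27.3% of the reads in coherent peaks, or 26.1% ± 1.08 (SD, n = 3), for 27.1% of the width covered. The GC content was 44.7% and 45.7% in the median.

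The letters GCGTGGG, a core shared by mammalian WT1 and EGR1 sites, were searched on both strands. The paper instead scanned its peaks with published motifs of Klu itself, which were not used here. They occurred in 69 of the 304 members' peaks (22.7%), in 19.5% of all coherent peaks and in 18.2% of peaks of genes with 1 peak. In windows of 1652 bp tiled along the arms, 11.96% held a match. Per Mb the matches numbered 143 in members' peaks, 125 in all coherent peaks and 79.7 on the arms, and base composition was not matched. Matches are shown from the strongest peaks described above, outside UTRs, 5′ to 3′ on the strand that reads GCGTGGG, with the match in capitals and 20 bases on each side.
SKIP, promoter, chr3R:22292660-22292706, forward strand: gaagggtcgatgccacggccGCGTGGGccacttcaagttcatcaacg
SKIP, intron, chr3R:22291865-22291911, forward strand: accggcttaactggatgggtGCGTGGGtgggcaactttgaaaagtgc
cv-c, intron, chr3R:14425256-14425302, forward strand: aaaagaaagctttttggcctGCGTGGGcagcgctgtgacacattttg
cv-c, intron, chr3R:14425420-14425466, reverse strand: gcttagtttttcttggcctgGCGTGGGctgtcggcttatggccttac
CG9650 (Cph), intron, chrX:7209886-7209932, forward strand: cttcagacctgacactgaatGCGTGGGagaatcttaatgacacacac
hiw, coding exon, chrX:15017879-15017925, forward strand: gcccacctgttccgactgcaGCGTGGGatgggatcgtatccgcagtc
Both cv-c matches lay in its highest peak, and its 3 lower peaks had none. In Eip74EF the order was the other way, with 1 match in the higher peak and 2 in the lower. The highest peaks of CG43658, loco and otk held no match. A match is a description of sequence and not a site of binding.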

How the data were processed

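Targeted DamID libraries were 3 of Klu-Dam and 3 of Dam-only. Per the paper's methods, the authors aligned single-end reads to dm6 with bowtie2 in damidseq_pipeline and called peaks per replicate on the log2 ratio of Klu-Dam over Dam-only. The deposited tables gave counts of Klu-Dam reads per peak, not divided by depth, width or Dam-only signal, and listed genes within 2 kb by the authors' script. The rule behind the names coherent and semicoherent and the way reads were counted over peaks are not given in the sources used here. Amplified reads are not independent molecules.

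Repeated entries (2 of 1900) were dropped. CPM used the reads in coherent peaks as total. Start positions are 1-based, on Release 6, whose GATC sites matched all peak edges. Annotation came from Ensembl (BDGP6), and 160 members matched by identifier. Log2 ratios of reads per kb between consecutive peaks were fitted with limma 3.58.1 (intercept, moderated spread, two-sided, Benjamini-Hochberg over 1116 pairs) in R 4.3.3, and the fit was checked on simulated data. Tables and figures used Python 3.11.15, numpy 2.4.6, pandas 2.3.3 and matplotlib.

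Genes named were the members with 3 or more peaks (up to 20), the 5 with the largest and smallest ratio, the 5 with the highest peak, and those in 13 pathway lists. Further genes were chosen after their values were seen, as examples of a role group. Members, lists and role groups were chosen with earlier results of these data known. Alternatives changed the scaling, the joining distance, the peak set, the minimum count and the libraries used.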

Additional observations from a re-analysis of the deposited data

How the results depend on the processing

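The number of members moved most with the definition of a separate peak, from 167 to 66 with peaks within 5000 bp joined and to 109 with a listed distance of 0, and ranged from 114 to 200 under the other alternatives. Of 165 member pairs 139 passed. When both peaks needed 1000 reads, fewer pairs were tested and 88 of 108 passed, and in the semicoherent set 169 of 203 did. Over the same 165 pairs the other scalings and spreads gave 111 to 147, and leaving out 1 replicate gave 125 to 148. In the 9 alternatives the share among member pairs exceeded that among all pairs by 0.782 to 3.97 percentage points. The alternatives reuse largely the same pairs and libraries, so they are not independent of each other. All pairs also include the member pairs, gaps were not matched, and the difference was not tested. The share of reads in members' peaks was 25.5% to 26.6% with 1 replicate left out and 22.1% for genes whose peaks stayed separate at 1000 bp, as fewer genes entered. The log2 ratio of median reads per kb against genes with 1 peak stayed within −0.00254 and 0.0301. Of 62 named pairs, 42 neither turned nor crossed the threshold under any alternative run. Those that turned were all short of the threshold at first. By whole read count CG9253 gave a log2 ratio of 0.58, msn (peaks 2 and 3) 1.00, CG14566 −1.30 and cv-c (peaks 3 and 4) 0.55. Per GATC fragment msn gave 0.26, brm (peaks 2 and 3) 0.42, CG14566 −1.30 and Alh (peaks 1 and 2) −0.59. With 1 replicate left out msn ranged from −0.28 to 0.16, brm from −0.66 to 0.61, CG14566 from −0.068 to 0.22, Alh from −0.22 to 0.95 and CG45186 from −0.015 to 0.27. The cause was not tested. No paired analysis was possible because the Dam-only counts were not used here and only the Klu-Dam group had values.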

Other observations

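A further 36 genes had 2 or more peaks in the semicoherent set only, and 35 of them had a single coherent peak. They included CAP, an adaptor of the actin cytoskeleton, whose semicoherent peaks had 275 and 59.6 CPM. Of the 167 members, 164 also had 2 or more semicoherent peaks. The exceptions were CG11367, CG14450 and clumsy, a glutamate receptor subunit, each with 1 semicoherent peak. At clumsy the coherent peaks held 1264, 1290 and 1139 and 44219, 45254 and 51713 reads.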
